A study of Homo sapiens with 2 samples.

Results

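The 9 hypoxia-linked transcription regulators CITED2, BHLHE40, BHLHE41, MXI1, ZNF395, MAFF, KLF6, KLF10 and ANKRD37 were followed along hypoxia level and tissue depth in sections of 2 tumors. They were taken by symbol from the feature list of the counts, and all 9 were found, each once, among 36601 features. Cells of MDA-MB-231, a triple-negative line of human breast cancer that here carried a hypoxia fate-mapping reporter, were implanted, and the untreated tumors were taken on day 18, frozen and sectioned at 10 µm for Visium. Visium captures RNA on an array of barcoded spots, and a spot is a small region with up to several cells. The tumors form a single group (n = 2), neither has a treated or normoxic counterpart here, and the fluorescence images were not used here. Zones within each section were therefore compared, with both zones of a comparison present in each tumor.

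Low oxygen stabilises the alpha subunits of hypoxia-inducible factor (HIF), which bind short DNA elements in their target genes together with ARNT and recruit the coactivators p300 and CBP. Part of the HIF response acts on transcription itself. CITED2 competes with HIF1A for p300 and CBP and so limits the response that induces it. BHLHE40 and its paralog BHLHE41 are basic helix-loop-helix repressors that bind E-boxes and also damp the circadian clock. MXI1 pairs with MAX in place of MYC and represses MYC targets. MAFF is a small MAF protein that lacks an activation domain and pairs with factors such as NFE2L2 or BACH1. KLF6 and KLF10 are Krüppel-like zinc-finger factors, the second also known as a gene induced early by TGF-beta. ZNF395 is a zinc-finger protein, and ANKRD37 is a small ankyrin-repeat protein known as a direct HIF target.

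Promoter windows from RefSeq on GRCh38.p14, 250 bases before to 50 after a transcript start, matched 7 of the 9 genes. The core that HIF binds was searched on both strands as ACGTG, found in 21.4% of the 35116 windows of all genes, and with a different first letter as GCGTG, found in 36.5% of them. Either core lay in at least 1 window of each of the 7 matched genes, and in 48.4% of all windows. The E-box known for MYC with MAX and for BHLHE40 is CACGTG, which holds the first core on both strands. This E-box lay in a window of 6 of the 7, all but MXI1, and in 7.3% of all windows. The counts of genes take a match in any of up to 3 windows of a gene, while the shares are over single windows. Counts and shares are therefore not on the same scale. The G and C content was 55.0% to 75.3% in the windows of these genes, beside a median of 58.7% over all windows, and these cores are rich in G and C. The 5 windows shown belong to genes on which the results below turn, and are printed in lower case with the cores and E-boxes of both strands in capitals. They lie at chr4:185396591-185396890 on the plus strand for ANKRD37, chr3:4979187-4979486 on the plus strand for BHLHE40, chr12:26124988-26125287 on the minus strand for BHLHE41, chr6:139374599-139374898 on the minus strand for CITED2 (start 1 of 3) and chr10:110209981-110210280 on the plus strand for MXI1 (start 2 of 3).
ANKRD37: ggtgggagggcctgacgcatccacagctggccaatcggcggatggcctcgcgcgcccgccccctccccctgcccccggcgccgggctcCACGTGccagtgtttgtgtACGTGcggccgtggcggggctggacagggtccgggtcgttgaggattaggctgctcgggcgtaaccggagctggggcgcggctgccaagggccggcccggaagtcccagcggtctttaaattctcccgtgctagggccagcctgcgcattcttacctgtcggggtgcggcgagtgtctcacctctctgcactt
BHLHE40: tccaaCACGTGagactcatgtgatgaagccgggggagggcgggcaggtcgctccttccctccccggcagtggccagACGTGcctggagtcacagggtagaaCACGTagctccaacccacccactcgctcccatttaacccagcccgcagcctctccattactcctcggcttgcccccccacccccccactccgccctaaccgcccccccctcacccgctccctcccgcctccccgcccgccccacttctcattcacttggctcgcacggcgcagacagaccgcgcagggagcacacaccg
BHLHE41: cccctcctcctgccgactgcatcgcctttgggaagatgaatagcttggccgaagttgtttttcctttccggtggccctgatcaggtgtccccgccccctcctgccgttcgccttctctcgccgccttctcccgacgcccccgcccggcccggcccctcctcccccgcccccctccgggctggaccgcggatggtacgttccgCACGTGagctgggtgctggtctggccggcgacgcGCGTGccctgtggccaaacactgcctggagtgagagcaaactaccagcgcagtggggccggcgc
CITED2: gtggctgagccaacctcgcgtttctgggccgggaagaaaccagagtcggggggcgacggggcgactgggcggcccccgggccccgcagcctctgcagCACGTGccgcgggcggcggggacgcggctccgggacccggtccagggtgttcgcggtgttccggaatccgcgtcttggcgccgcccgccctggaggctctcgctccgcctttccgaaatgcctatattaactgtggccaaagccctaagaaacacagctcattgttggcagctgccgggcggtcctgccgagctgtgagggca
MXI1: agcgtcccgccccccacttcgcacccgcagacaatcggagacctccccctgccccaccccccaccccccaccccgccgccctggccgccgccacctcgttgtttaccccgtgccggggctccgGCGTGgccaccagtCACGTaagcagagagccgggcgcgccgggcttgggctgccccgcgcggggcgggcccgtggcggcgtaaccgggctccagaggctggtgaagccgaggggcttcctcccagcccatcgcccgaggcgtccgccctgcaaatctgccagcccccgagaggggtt

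Beside its E-box the ANKRD37 window carried a separate core, and the BHLHE40 window carried 2. The CITED2 window shown had its E-box alone, while those of its other starts held 2 and 1 cores and no E-box, and the BHLHE41 window had an E-box and a core. The MXI1 window shown held a core of each form on opposite strands and no E-box. Of its other starts, the window of start 1 held 0 cores and that of start 3 held 2, with no E-box in either. A match describes the letters of a window and says nothing of binding in these tumors.

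The libraries held 58661164 unique molecular identifiers (UMIs) over 2536 spots in tumor 1 and 39735490 over 2841 kept spots in tumor 2, with medians of 23574 and 15895 UMIs per spot. Genes known to be expressed in the line, such as VIM and CD44, summed to 9599 and 9517 CPM (UMIs scaled to a common library size). The listed genes that it was taken to lack, ESR1, PGR, CDH1, EPCAM and GATA3, summed to 25.8 and 23.8 CPM. Most of that sum was EPCAM (19.7 and 17.8 CPM) and GATA3 (5.80 and 5.76 CPM), which were thus detected. ESR1 was at 0.12 and 0.13 CPM and CDH1 at 0.05 and 0.03 CPM. The counts were assigned to human genes alone, so host RNA that aligns to them cannot be told apart. Within a spot, fewer cells of a type and less RNA per cell cannot be told apart. In each section a threshold on UMIs set apart a low-UMI area of 20.9% of spots in tumor 1 and 29.2% in tumor 2. Hypoxia level was a score from 28 HIF-responsive genes such as CA9, VEGFA and PGK1, none of them among the 9, averaged over adjacent spots. The score and the summed level of its genes parted in the low-UMI area. In tumor 2, 59.6% of the low-score zone lay in that area, although the 28 genes there summed to 8217 CPM, against 5315 CPM in the rest of that zone. For tumor 1 the share was 12.5%, with 8595 against 5648 CPM. Score results are therefore also given without the low-UMI area, and with a score pooled over neighbouring spots before taking logarithms, which was added after the data were seen and leaves 0.315% and 9.42% of the low zone in that area.

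The first comparison asked which regulators differ between the tissue with the highest and that with the lowest hypoxia score. The top and the bottom quartile of spots by score were summed per tumor (634 spots a zone in tumor 1 and 711 in tumor 2), and CPM values were scaled with TMM factors. In all, 7 of the 9 regulators were higher in the high-score zone and 0 were lower. ANKRD37, MXI1, BHLHE40 and CITED2 had the largest differences, ZNF395 was about 2-fold higher, KLF6 and MAFF about 1.5-fold, BHLHE41 differed between the tumors, and KLF10 had nearly the same level in both zones. The background was 11% of genes called, with 6.4% of 14170 tested genes called higher and 4.61% called lower at an edgeR adjusted p under 0.05, and the median log2 fold change was 1.10 over the 9 genes and 0.0046 over all tested genes. The 9 were named as hypoxia-induced genes with earlier results of these data known, so their count is not independent evidence of the direction.

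**Figure D1:**
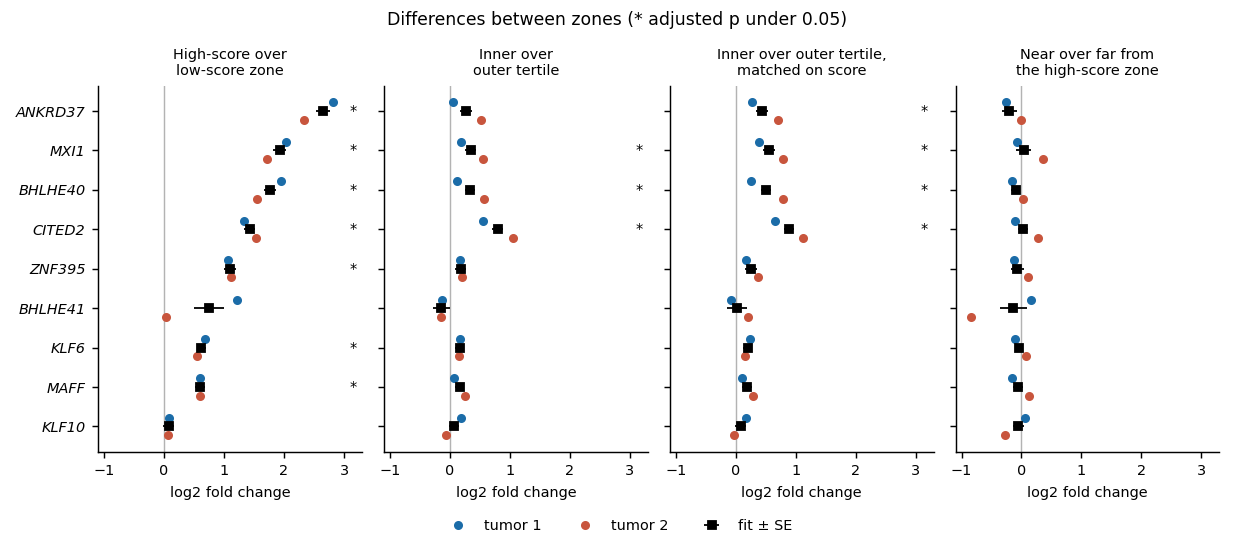
Log2 fold changes of the 9 regulators in 4 comparisons of zones. Black squares give the edgeR fit with its SE, blue and red circles tumor 1 and tumor 2, and an asterisk an edgeR adjusted p under 0.05. In the first panel 7 genes lie to the right of 0 with an asterisk, from ANKRD37 at 2.65 to MAFF at 0.60, and KLF10 lies at 0.08.

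ANKRD37 (ENSG00000186352, chromosome 4, 185396841 to 185400723 in GRCh38.p14) was at 106.8 CPM in the high-score and 15.1 CPM in the low-score zone in tumor 1, with 70.4 and 13.8 CPM in those of tumor 2. Both high-score zones lay far above both low-score zones, a 6.27-fold difference (log2 2.65 ± 0.12 SE, n = 2 tumors, edgeR adjusted p = 3.44e-06). It ranked 10 among the log2 fold changes of all 14170 tested genes. CITED2 (ENSG00000164442, chromosome 6, 139371807 to 139374648), the competitor of HIF for p300, was at 145 and 57.6 CPM in the high-score and low-score zones of tumor 1, and at 177 and 61.2 CPM in those of tumor 2. The zones did not overlap, and the fold was 2.69 (log2 1.43 ± 0.09 SE, n = 2, edgeR adjusted p = 1.36e-05).

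Of the paralogous repressors, BHLHE40 (ENSG00000134107, chromosome 3, 4979437 to 4985323) stood at 238 CPM in the high-score and 61.4 CPM in the low-score zone in tumor 1, with 223 and 76.1 CPM in those of tumor 2. The high-score zones of both tumors were alike in level and above both low-score zones, 3.40-fold in the fit (log2 1.77 ± 0.10 SE, n = 2, edgeR adjusted p = 1.15e-05). BHLHE41 (ENSG00000123095, chromosome 12, 26120030 to 26125037) rested on far fewer UMIs, 509 over all of tumor 1 and 292 over all of tumor 2. It was at 14.02 CPM in the high-score and 5.96 CPM in the low-score zone in tumor 1 (171 and 109 UMIs), and at 8.99 and 8.82 CPM in those of tumor 2 (105 and 51 UMIs). The zones differed in tumor 1 and lay together in tumor 2, and the fit gave log2 0.75 ± 0.25 SE (edgeR adjusted p = 0.0898). With the pooled score BHLHE41 was called (log2 0.95 ± 0.19 SE, edgeR adjusted p = 0.0001), at log2 1.25 in tumor 1 and 0.54 in tumor 2. It was also called without the low-UMI area (edgeR adjusted p = 0.0116), where tumor 2 was still at log2 0.00, so that call rests on tumor 1. In all, 11 of 18 alternatives called BHLHE41, with log2 between 0.63 and 1.17.

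MXI1 (ENSG00000119950, chromosome 10, 110207605 to 110287365), which opposes MYC, was at 74.4 CPM in the high-score and 18.0 CPM in the low-score zone in tumor 1, with 55.2 and 16.6 CPM in those of tumor 2. The zones were well apart in both sections, with a 3.80-fold difference (log2 1.93 ± 0.11 SE, n = 2, edgeR adjusted p = 1.11e-05). Of 20 genes that MYC is known to activate in growth, 0 were higher and 5 lower: CAD (log2 -0.55 ± 0.08 SE), NOP56 (-0.43 ± 0.08), MRTO4 (-0.37 ± 0.08), CDK4 (-0.29 ± 0.08) and SRM (-0.29 ± 0.08), by edgeR at adjusted p-values between 0.0035 and 0.0496. The median over the 20 was -0.15, and 4.61% of all tested genes were called lower. Whether MXI1 has a part in these levels was not tested. CAD makes pyrimidine precursors, NOP56 and MRTO4 serve ribosome assembly, CDK4 drives the cell cycle and SRM makes spermidine.

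Of the zinc-finger genes, ZNF395 (ENSG00000186918, chromosome 8, 28345590 to 28386460) was at 53.1 CPM in the high-score and 25.1 CPM in the low-score zone in tumor 1, with 46.8 and 21.5 CPM in those of tumor 2. The zones did not overlap, and the tumors gave like values of log2 1.07 and 1.12 (fit 1.10 ± 0.10 SE, n = 2, edgeR adjusted p = 0.00021). KLF6 (ENSG00000067082, chromosome 10, 3775996 to 3785209) was at 189 and 118 CPM in the high-score and low-score zones of tumor 1, and at 158 and 108 CPM in those of tumor 2 (log2 0.62 ± 0.08 SE, n = 2, edgeR adjusted p = 0.0015). Both high-score values of KLF6 exceeded both low-score values.

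KLF10 (ENSG00000155090, chromosome 8, 102648784 to 102655725) was at 48.1 CPM in the high-score and 45.2 CPM in the low-score zone in tumor 1, with 45.5 and 43.6 CPM in those of tumor 2. All 4 values lay close together, and the fit gave log2 0.08 with a 95% interval of -0.13 to 0.28 (edgeR adjusted p = 0.639, n = 2). The upper end of that interval is a fold of 1.21. MAFF (ENSG00000185022, chromosome 22, 38201994 to 38216511), the small MAF gene, was at 72.1 and 47.5 CPM in the high-score and low-score zones of tumor 1, and at 74.3 and 49.1 CPM in those of tumor 2. Both tumors gave log2 0.60 (fit 0.60 ± 0.09 SE, edgeR adjusted p = 0.0030).

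Along 5 score levels of equal numbers of spots, the 7 called genes rose at every level in tumor 1. In tumor 2 BHLHE40, MXI1, ZNF395 and ANKRD37 did so over all spots, but CITED2, MAFF and KLF6 did not. CITED2 and MAFF dipped from level 1 to level 2 (log2 CPM 6.03 to 5.93 and 5.64 to 5.55), and KLF6 was lowest at level 3 (6.73). ANKRD37 was at 14.7, 25.8, 43.2, 65.8 and 114 CPM from level 1 to level 5 in tumor 1, and at 14.1, 15.2, 20.4, 42.4 and 75.9 CPM in tumor 2. In tumor 1 each level was well above the one before, while in tumor 2 most of the climb came after level 3. Levels 1 to 3 of tumor 2 held 65.4%, 35.6% and 29.2% of their spots in the low-UMI area. With that area left out and the levels drawn anew, ANKRD37 in tumor 2 was at 12.5, 14.5, 30.7, 52.6 and 79.6 CPM. In that setting CITED2, BHLHE40, MXI1, ZNF395, MAFF and ANKRD37 rose at every level in both tumors, and KLF6 did so in 1 of them. The ratio of level 5 to level 1 was 7.91 in tumor 1 and 6.38 in tumor 2 for ANKRD37, 4.52 and 4.85 for MXI1, 4.38 and 3.96 for BHLHE40, and 2.68 and 3.59 for CITED2. KLF10 had ratios of 1.06 and 1.04, with no order along the levels. BHLHE41 had ratios of 2.54 and 1.29, and in tumor 2 its lowest value, 4.72 CPM, was at level 3.

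**Figure D2:**
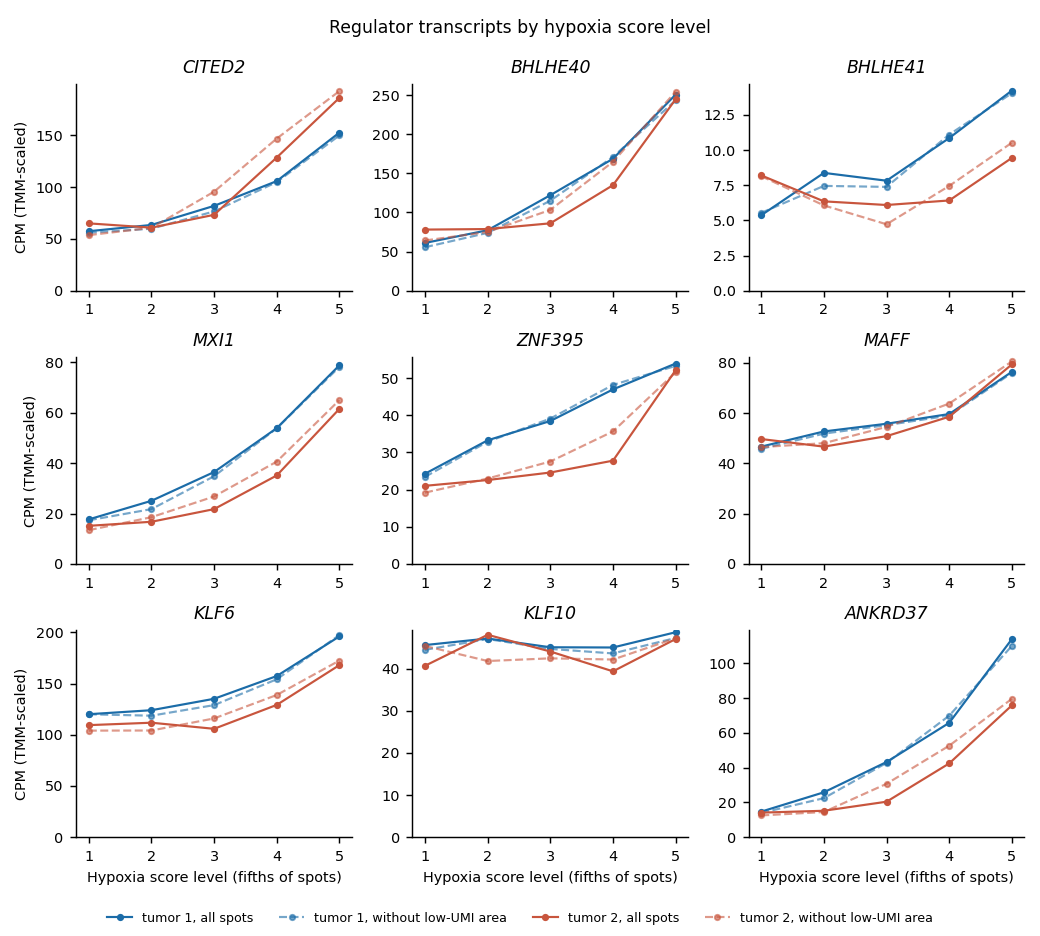
CPM of each regulator at 5 levels of the hypoxia score, from the lowest to the highest, in tumor 1 (blue) and tumor 2 (red). Solid lines use all spots and dashed lines leave out the low-UMI area, with each panel starting at 0. ANKRD37 runs to 114 CPM at level 5 of tumor 1 and 75.9 CPM in tumor 2, while KLF10 stays between 39.4 and 48.7 CPM over all spots.

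The levels were also followed over single spots. Spearman's rho between a spot's level and its score, given as a description over 2536 spots in tumor 1 and 2841 in tumor 2 that share a library and neighbours, was 0.47 and 0.43 for BHLHE40 and 0.44 and 0.44 for ANKRD37. It was -0.01 and 0.18 for KLF10. In tumor 2 the score itself went with the UMIs of the spot (rho 0.39). There the levels of KLF10, MAFF, ZNF395, KLF6 and BHLHE41 had a higher rho with UMIs (0.39, 0.36, 0.34, 0.30 and 0.18) than with the score (0.18, 0.29, 0.30, 0.28 and 0.09). In tumor 1 the score went against UMIs (rho -0.20). Even so, KLF10, MAFF, ZNF395 and BHLHE41 had a higher rho with UMIs (0.21, 0.17, 0.24 and 0.14) than with the score (-0.01, 0.12, 0.16 and 0.08). Spatial clustering, as Moran's I over adjacent spots, was highest for BHLHE40 in tumor 1 (0.265) and for CITED2 and BHLHE40 in tumor 2 (0.173 and 0.172). Moran's I was -0.0013 and 0.033 for KLF10. BHLHE41 was met in 17.5% of spots in tumor 1 and 8.80% in tumor 2, so its maps carry little.

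**Figure D3:**
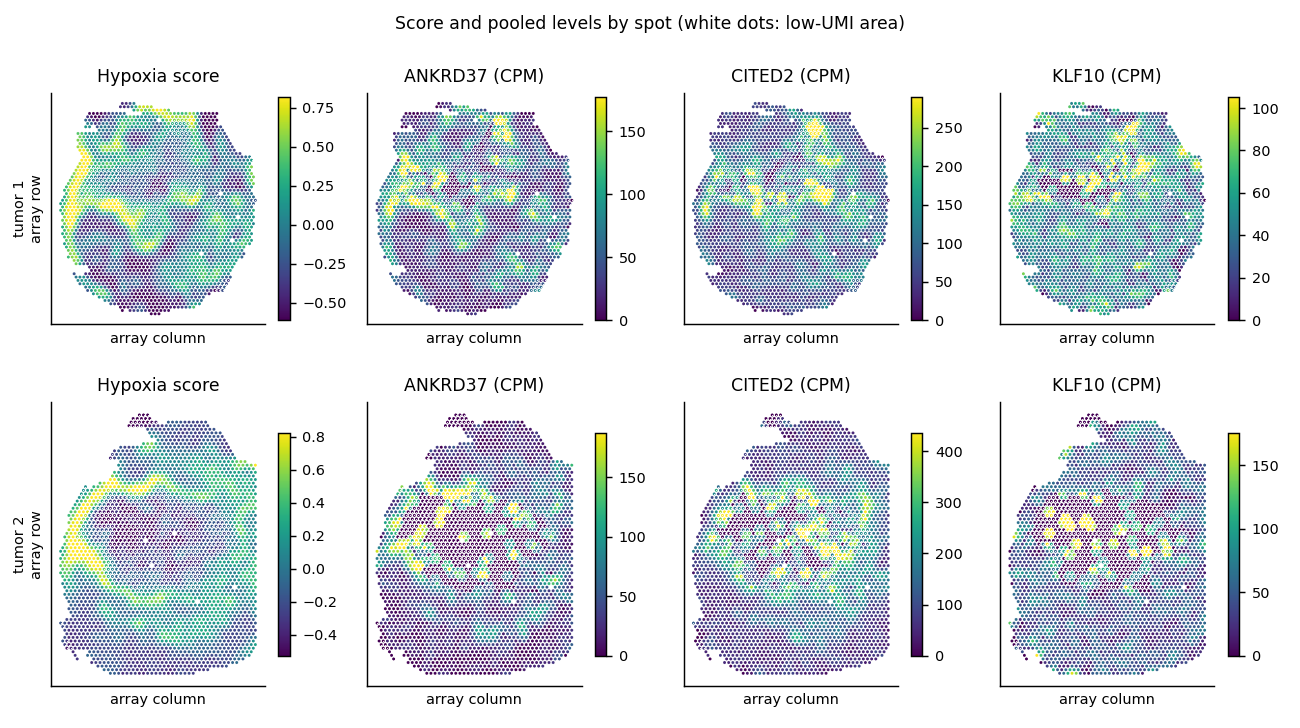
Maps of both sections by array row and column, with the hypoxia score and the levels of ANKRD37, CITED2 and KLF10 pooled over adjacent spots in CPM. White dots mark the low-UMI area (20.9% of spots in tumor 1, 29.2% in tumor 2), where pooled levels rest on few UMIs. High ANKRD37 and CITED2 values lie in and around that area, and KLF10 shows no band along the score.

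Sections were also split into the low-UMI area, the spots around it and the rest. BHLHE40 was at 236 CPM in the low-UMI area of tumor 1, 219 CPM in the spots 1 or 2 steps outside it and 105 CPM in the rest of the section. In tumor 2 it was at 253, 279 and 109 CPM. CITED2 was at 158, 143 and 73.9 CPM in tumor 1, and at 192, 218 and 93.0 CPM in tumor 2. Both genes were thus about as high inside the area as around it, in both sections. ANKRD37 was lower inside the area (79.8 CPM in tumor 1 and 51.8 CPM in tumor 2) than in the spots around it (89.7 and 84.8 CPM), and lowest in the rest (39.3 and 30.6 CPM). ZNF395 showed 35.7 and 34.0 CPM inside, 47.3 and 45.9 CPM around it and 35.3 and 28.1 CPM in the rest. These levels have no test, since the areas were drawn from UMIs of the same spots, and the part that few UMIs or RNA quality play in them was not tested.

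Sums over 5 score levels and 3 depth tertiles in each tumor gave 30 sums, across which 7 of the regulators varied together. Pearson's r of log2 CPM, centred within tumor, lay between 0.82 and 0.96 over the 21 pairs of these 7, as a description of sums that share libraries and the score they are ordered by. The highest pair was ANKRD37 with BHLHE40 (0.96). KLF10 had r between 0.08 and 0.19 with the 7. BHLHE41 had r between 0.56 and 0.74 in tumor 1 and between -0.21 and 0.05 in tumor 2. Among 6747 other genes of at least 20 CPM, those most like ANKRD37 were the metallothionein MT1X (r = 0.98) and NDRG1 (0.98), and those most like MXI1 were KDM3A and VEGFA (0.98 each). NDRG1, KDM3A and VEGFA are genes of the score. Among the genes most like BHLHE40 was ERRFI1, an inhibitor of EGF receptor signalling (0.98). CITED2 was most like PLIN2, which coats lipid droplets (0.97), and TPT1 (0.97), and KLF6 like TPT1 (0.93) and CCNI (0.92). MAFF was most like C15orf48 and BRI3 (0.93 each), ZNF395 like RALA and RPL39 (0.92 each) and BHLHE41 like CYB5R1 (0.89, with 0.68 in tumor 1 and 0.95 in tumor 2) and EDF1 (0.85, with 0.57 and 0.92). KLF10 had no close match, the highest being BLVRA and PDPK1 (0.54 each).

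Counts for relatives and partners of the regulators stand beside 6.4% of all tested genes called higher and 4.61% called lower in this comparison. Of 26 members of the same families, KLF4 (log2 0.91 ± 0.09 SE), the small MAF gene MAFK (0.83 ± 0.10) and KLF5 (0.74 ± 0.11) were higher in the high-score zone, and KLF2 was lower (-0.56 ± 0.12), by edgeR at adjusted p-values of 0.0005, 0.0011, 0.0042 and 0.0168. Of 22 tested partners, HIF subunits and their regulators, 3 were higher and 2 lower. BACH1, a repressor that pairs with small MAF proteins, was at 79.7 CPM in the high-score and 31.4 CPM in the low-score zone in tumor 1, with 77.2 and 29.1 CPM in those of tumor 2 (log2 1.37 ± 0.09 SE, n = 2, edgeR adjusted p = 2.68e-05). EGLN1, a prolyl hydroxylase that marks HIF for destruction and is itself HIF-induced (0.56 ± 0.08), and EPAS1, which encodes HIF-2 alpha (0.47 ± 0.11, chosen after its value was seen), were higher. The hydroxylase gene EGLN2 (-0.53 ± 0.09) was lower. HIF1A itself was at 127.1 CPM in the high-score and 178 CPM in the low-score zone in tumor 1, with 130.3 and 188 CPM in those of tumor 2 (log2 -0.51 ± 0.08 SE, n = 2, edgeR adjusted p = 0.0040). These are transcript levels, and HIF alpha is mainly set by the stability of the protein.

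Of 15 tested clock genes, the targets BHLHE40 is known to act beside, 4 were higher and 0 lower, led by RORA (log2 1.56 ± 0.15 SE) and NFIL3 (1.51 ± 0.11), with PER1 (0.68 ± 0.12) and NR1D1 (0.70 ± 0.19, log2 1.06 in tumor 1 and 0.21 in tumor 2) added after their values were seen. Of 20 immediate early genes, 10 were higher and 0 lower, led by DUSP1 (1.34 ± 0.12) and FOS (1.28 ± 0.20). Of 15 genes of the TGF-beta response, the pathway that KLF10 is named for, 4 were higher and 1 lower, with ID2 at 0.88 ± 0.23 and SMAD6 at -1.02 ± 0.26. The medians were 0.44, 0.53 and 0.24 for the 3 lists, beside 0.0046 for all tested genes. Of all tested genes 6.4% were called higher and 4.61% lower.

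Markers of other cells were not level between the zones. The summed level of 10 fibroblast markers was 1160 CPM in the high-score and 883 CPM in the low-score zone in tumor 1, with 756 and 1981 CPM in those of tumor 2, the opposite order. Of the 8 tested, 0 were higher and 3 lower. Those 3, PDGFRB, FAP and FBLN1, were lower in both tumors (log2 -0.87, -1.33 and -0.56 in tumor 1). The summed level was mostly that of COL1A1, COL3A1 and COL1A2, at 322, 276 and 252 of 886 CPM over all spots of tumor 1. Of 9 tested macrophage and granulocyte markers, 1 was higher and 3 lower, with summed levels of 310 and 249 CPM in tumor 1 and 242 and 271 CPM in tumor 2. The higher one, CD68 (log2 0.69 ± 0.08 SE), made up most of the sums, with 177 of 271 CPM over all spots of tumor 1. The 3 lower ones, C1QB, AIF1 and TYROBP, were lower in both tumors (log2 -0.71, -0.64 and -0.41 in tumor 1). The 10 skeletal muscle markers summed to 15.6 and 12.9 CPM in tumor 1 and 24.95 and 765 CPM in tumor 2. Endothelial, red blood cell, adipocyte and skin markers had 0 calls. Each of these markers had UMIs in at least 1 tumor except LEP and KRT1. All 7 calls of the regulators also held without the tenth of spots richest in these markers, without the low-UMI area and in each of the other alternatives run (18 in all). The p-values rest mostly on the spread shared across genes, since 2 tumors leave 1 residual degree of freedom. The labels do not say that the tumors came from separate animals, so the spread between them may be technical.

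The second comparison asked whether the regulators differ with depth alone. Depth was counted in steps of adjacent spots to the tissue border, and the inner tertile (848 spots in tumor 1 and 979 in tumor 2) was set against the outer (919 and 997). CITED2, MXI1 and BHLHE40 were higher in the inner tertile and 0 of the 9 were lower. In the background 5.66% of genes were called: 2.3% of 14758 tested genes higher and 3.36% lower by edgeR, and the median log2 fold change was 0.18 over the 9 and 0.0009 over all tested genes. CITED2 was at 108 CPM in the inner and 73.5 CPM in the outer tertile of tumor 1, and at 157 and 75.3 CPM in those of tumor 2. The outer tertiles of both tumors were alike and the inner ones higher, by 1.74-fold (log2 0.80 ± 0.09 SE, n = 2, edgeR adjusted p = 1.24e-05).

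MXI1 was at 44.1 CPM in the inner and 38.8 CPM in the outer tertile of tumor 1, and at 40.7 and 27.8 CPM in those of tumor 2 (log2 0.35 ± 0.10 SE, n = 2, edgeR adjusted p = 0.0394). BHLHE40 was at 132 and 121 CPM in the inner and outer tertiles of tumor 1, and at 161 and 109 CPM in those of tumor 2 (log2 0.34 ± 0.09 SE, n = 2, edgeR adjusted p = 0.0229). For both genes the difference in tumor 1 was small, log2 0.18 for MXI1 and 0.12 for BHLHE40, against 0.55 and 0.56 in tumor 2. ANKRD37, with the largest difference by score, was at 48.8 and 46.9 CPM in the inner and outer tertiles of tumor 1, and at 40.6 and 28.2 CPM in those of tumor 2 (log2 0.26 ± 0.10 SE, edgeR adjusted p = 0.137). KLF6, ZNF395, MAFF, KLF10 and BHLHE41 lay between log2 -0.14 and 0.18 without passing. Over single spots, Spearman's rho between level and steps to the border was 0.11 in tumor 1 and 0.09 in tumor 2 for CITED2. It was 0.06 and -0.02 for BHLHE40 and -0.01 and -0.05 for MXI1, near 0 or against the direction of the zone sums. CITED2 alone was called with library size scaling, with every off-tissue position as border and with the section split at the median depth, and none of the 9 was called by DESeq2 or without the tumor as a block, where CITED2 had log2 0.81 (DESeq2 adjusted p = 0.13) and 0.83 (edgeR adjusted p = 0.102).

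**Figure D4:**
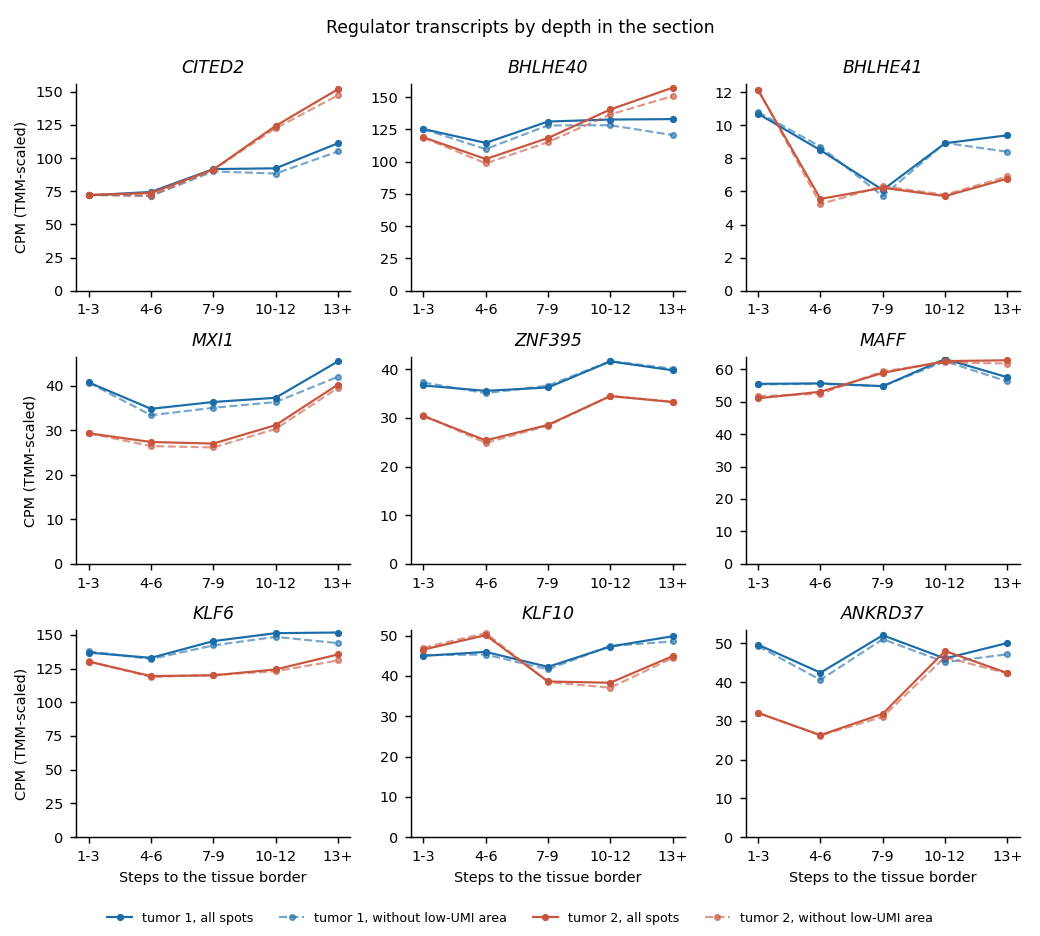
CPM of each regulator by steps to the tissue border, from the outermost 1 to 3 steps to 13 or more, in tumor 1 (blue) and tumor 2 (red), with dashed lines leaving out the low-UMI area. CITED2 climbs inward to 111 CPM in tumor 1 and 152 CPM in tumor 2, and BHLHE41 is highest in the outermost bin, at 10.7 and 12.1 CPM.

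Over 5 bins of depth, CITED2 climbed inward in both sections. It was at 71.9, 74.5, 91.7, 92.3 and 111 CPM from the border inward in tumor 1, and at 72.3, 73.6, 91.4, 124 and 152 CPM in tumor 2. Without the low-UMI area the deepest bin was at 105 CPM in tumor 1 and 147 CPM in tumor 2. BHLHE41 had its highest level at the border, at 10.7 CPM in tumor 1 and 12.1 CPM in tumor 2, over 6.09 to 9.40 CPM and 5.55 to 6.77 CPM deeper in, although its inner and outer tertiles were not called different. KLF10 stayed between 38.3 and 50.1 CPM in all 10 bins. The inner tertile held 40.6% of its spots in the low-UMI area in tumor 1 and 55.2% in tumor 2, and the outer tertile 6.31% and 10.4%.

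Other genes differed with depth as well, beside a background of 2.3% of tested genes called higher and 3.36% called lower. KLF5 and BACH1 were higher in the inner tertile (log2 0.45 ± 0.09 SE and 0.42 ± 0.08), EGLN2 was lower (-0.39 ± 0.09), and MAF (-1.02 ± 0.14) and CITED1 (-1.48 ± 0.40), a relative of CITED2, were lower. Of 20 immediate early genes, 7 were higher and 0 lower, and of 15 TGF-beta response genes 0 were higher and 5 lower. One clock gene, NFIL3, was higher (0.53 ± 0.12), and 0 of 20 MYC-activated genes were called. Of the 28 score genes 5 were higher and 1 lower (median 0.11). Fibroblast markers were lower in 7 of 8 tested, macrophage and granulocyte markers in 7 of 10 and skeletal muscle markers in 7 of 7. Fibroblast markers summed to 514 CPM in the inner and 1433 CPM in the outer tertile of tumor 1, and to 370.4 and 1943 CPM in those of tumor 2. Without the tenth of spots richest in markers of other cells, CITED2, MXI1 and BHLHE40 were still called. The part of these cells in the depth differences was not tested further.

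The third comparison asked whether depth matters at equal hypoxia score. Inner and outer spots were drawn in equal numbers from 20 score bins (726 spots a side in tumor 1 and 688 in tumor 2). CITED2, MXI1, BHLHE40 and ANKRD37 were higher in the inner spots and 0 of the 9 were lower, while edgeR called 5.94% of 14309 tested genes, 2.59% higher and 3.35% lower. The median log2 fold change was 0.26 over the 9, against -0.0005 over all tested genes. CITED2 was at 113 CPM in the inner and 71.1 CPM in the outer spots of tumor 1, and at 149.5 and 68.3 CPM in those of tumor 2. Inner spots were higher in both tumors, 1.84-fold in the fit (log2 0.88 ± 0.09 SE, n = 2, edgeR adjusted p = 2.01e-09).

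Other measures also differed between the matched spots. The low-UMI area held 38.6% of inner and 6.47% of outer spots in tumor 1, and 59.0% and 12.8% in tumor 2. Fibroblast markers summed to 502 CPM in inner and 1366 CPM in outer spots of tumor 1, and to 364 and 2006 CPM in those of tumor 2, with 7 of 8 tested lower. Macrophage and granulocyte markers were lower in 7 of 10 tested, and skeletal muscle markers in 6 of 6. The 28 score genes summed to 8313 CPM in inner and 8412 CPM in outer spots of tumor 1, but to 8498 and 7238 CPM in those of tumor 2, so the match on score left their summed level unequal there.

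The CITED2 call held in all 21 alternatives, with log2 between 0.60 and 0.99. Without the low-UMI area it was at 102 and 76.8 CPM in the inner and outer spots of tumor 1, and at 150.5 and 80.2 CPM in those of tumor 2 (log2 0.63 ± 0.08 SE, edgeR adjusted p = 5.24e-14). With the pooled score it was at 106 and 73.3 CPM in tumor 1 and 150.5 and 75.8 CPM in tumor 2 (log2 0.72 ± 0.07 SE, edgeR adjusted p = 1.83e-20). As in the first comparison, SEs and p-values rest mostly on the spread shared across genes, with 1 residual degree of freedom. They say little of the spread between the 2 tumors. The other calls shrank without the low-UMI area and with the pooled score. ANKRD37 gave log2 0.44 ± 0.10 SE over all spots (edgeR adjusted p = 0.0046), 0.11 without the low-UMI area (edgeR adjusted p = 0.648) and 0.08 with the pooled score (edgeR adjusted p = 0.725). MXI1 gave 0.55 ± 0.10 over all spots (edgeR adjusted p = 0.0004), 0.15 without that area (edgeR adjusted p = 0.503) and 0.26 with the pooled score (edgeR adjusted p = 0.0709). BHLHE40 gave 0.51 ± 0.09 over all spots (edgeR adjusted p = 0.0001) and 0.23 in both settings (edgeR adjusted p = 0.0493 and 0.0307), with 0.02 and 0.06 in tumor 1 and 0.48 and 0.46 in tumor 2. Whether CITED2 differs with depth more than these genes was not tested.

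Within each of the 5 score levels CITED2 was higher in the inner than in the outer tertile, in both tumors, 10 cases of 10. The levels of a section share a library and neighbouring spots, and regroup spots of the depth tertiles compared above. Such counts therefore describe 2 tumors, add no replicates, and were not set beside counts over all genes. In tumor 1 the inner tertile was at 71.3, 77.4, 93.1, 134 and 197 CPM from score level 1 to level 5, against 49.0, 47.6, 62.0, 79.8 and 128 CPM in the outer tertile. In tumor 2 the inner tertile was at 185, 177, 103, 162 and 190.3 CPM, against 58.2, 54.1, 60.8, 64.7 and 155 CPM in the outer tertile. The first 2 inner values of tumor 2 come from spots of which 100% and 98.8% lay in the low-UMI area. The count was 9 of 10 for MXI1 and ANKRD37, 8 of 10 for BHLHE40, ZNF395, MAFF and KLF6, 6 of 10 for KLF10 and 3 of 10 for BHLHE41. At the top score level of tumor 2, ANKRD37 went the other way, at 54.4 CPM in the inner and 81.0 CPM in the outer tertile.

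**Figure D5:**
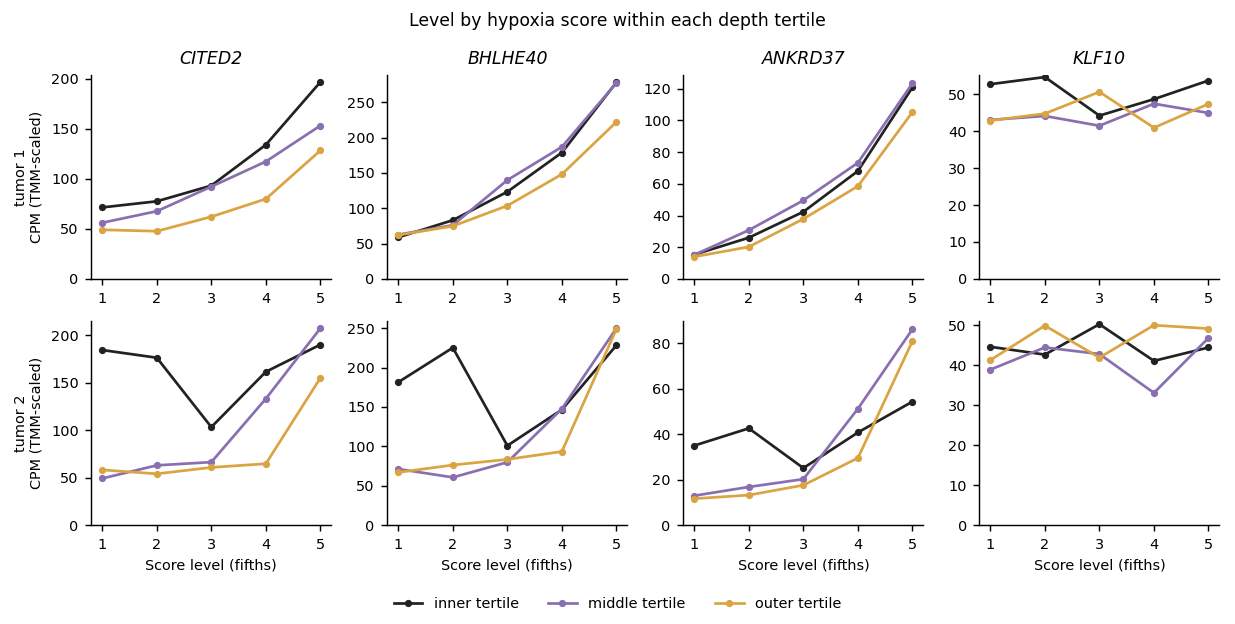
CPM of CITED2, BHLHE40, ANKRD37 and KLF10 by score level within the inner (black), middle (purple) and outer (gold) depth tertile, tumor 1 above and tumor 2 below. For CITED2 the inner line lies above the outer line at all 5 levels in both tumors. In tumor 2 the inner points of levels 1 and 2, at 185 and 177 CPM for CITED2, lie almost wholly in the low-UMI area.

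A test of whether the response to score differs between inner and outer tissue called 0 of the 9, with 0.0163% of 12306 tested genes called. At an unadjusted p under 0.05 there was 1, BHLHE41 (log2 1.24 ± 0.49 SE, edgeR adjusted p = 0.99994), and DESeq2 called 0 of the 9. The BHLHE41 value rests on few counts, with 25 UMIs in the low-score inner spots of tumor 1 and 3 in those of tumor 2. In tumor 1, CITED2 was at 191 CPM in high-score and 70.9 CPM in low-score inner spots, and at 121 and 48.7 CPM in high-score and low-score outer spots. In tumor 2 it was at 193 and 182 CPM in inner spots, and at 141 and 53.3 CPM in outer spots. All 283 low-score inner spots of tumor 2 lay in the low-UMI area, so that the 2 tumors do not measure the same contrast there. In simulated counts this test recovered 0% of genes changed by log2 0.5 and 23% of those changed by log2 1, and 0% and 45.1% among genes of at least 20 CPM, so a missed call says little.

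The last comparison asked whether low-score tissue beside the high-score zone differs from low-score tissue far from it, a question that the fate-mapping design raises. Spots with a score under the median were split into near (1 to 3 steps from the top quartile) and far (4 steps or more) and matched on score (473 spots a side in tumor 1 and 312 in tumor 2). The match left other measures unequal. The low-UMI area held 19.9% of near and 24.3% of far spots in tumor 1, and 49.0% and 37.8% in tumor 2. Fibroblast markers summed to 904 and 728 CPM in near and far spots of tumor 1, and to 1079 and 1826 CPM in those of tumor 2. Skeletal muscle markers summed to 16.4 and 13.7 CPM in tumor 1, and to 25.3 and 756 CPM in tumor 2. Their part was not tested. None of the 9 was called, 0 had an unadjusted p under 0.05, and DESeq2 called 0. Over all 13382 tested genes 0.00747% were called, and 598 had an unadjusted p under 0.05. ANKRD37 was at 21.7 CPM in near and 26.05 CPM in far spots of tumor 1, and at 16.3 and 16.4 CPM in those of tumor 2, with log2 -0.20 and a 95% interval of -0.46 to 0.06 (edgeR adjusted p = 0.978). CITED2 was at 62.9 and 67.5 CPM in near and far spots of tumor 1, and at 76.1 and 63.0 CPM in those of tumor 2, opposite in sign (95% interval -0.16 to 0.21). KLF6 had the narrowest interval, -0.18 to 0.09. ANKRD37 had the same sign in both tumors, and the other 8 did not. In simulated counts this test recovered 61% of genes changed by log2 0.5, and 92.6% among genes of at least 20 CPM. The simulation gave all genes the same dispersion and each change the same size in both tumors. Recovery in the real counts may therefore be lower.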

How the data were processed

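The authors deposited raw UMI counts for each gene in each spot. Per the file headers these came from Space Ranger 1.3.0, and the submitters' processing notes name hg38. Sequences and positions came from RefSeq tables on GRCh38.p14. Array barcodes mark positions, and 1627 occur in both tumors. A minimum of 500 UMIs left 2536 and 2841 tissue spots of 4992 positions.

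For the score, log2(1 + UMIs per 10000) of each of 28 genes was turned into z values, and their mean was averaged over adjacent spots. Score genes were left out of the tested genes except between depth tertiles. The border was any gap of at least 5 positions without tissue. The low-UMI area came from an Otsu threshold on smoothed UMIs. Doublets were not called, since spots are regions.

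UMI sums per tumor and zone (4 sums, or 8 for the test of the difference in response) entered the quasi-likelihood F test of edgeR 4.0.16, after filterByExpr and TMM scaling. The tumor was a block, because both zones of a tumor lie in the same section. Calls were made at 0.05 after Benjamini-Hochberg adjustment over all tested genes, and all 9 passed the filter. The SE is the log2 fold change over the square root of F. Log2 values per tumor and for correlations used a prior count of 2.

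Named genes were the 9, the 2 genes most like each over 30 sums, up to 4 called genes of the family and partner lists per comparison, and 2 called genes of each other list in the first. The 9 genes, the lists and the tests were chosen with earlier results of these data known. MRTO4, CDK4 and SRM, and NFIL3 in the depth comparison, were named after their values were seen. Some genes that the rule names are not reported here.

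In simulated counts with 200 changed genes, the comparisons by score, depth, depth at matched score, and near against far recovered 43%, 64%, 53% and 61% of genes changed by log2 0.5, and 85%, 89%, 77% and 87% at log2 1 (2, 7, 9 and 6 false calls). For the difference in response the recovery was 0% and 23% (2 false calls). Alternatives covered scaling, DESeq2 1.42.0, filters, depth, score, border and matching. Counts limit precision most for BHLHE41. Versions were 4.3.3 for R and 3.11.15 for Python.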

Additional observations from a re-analysis of the deposited data

How the results depend on the processing

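Over the 9 genes, 763 of 808 tests under alternatives stayed on their side of the threshold (70 of them uncalled either way and of the other sign), 31 lost a call, 14 gained one and 0 calls reversed. The 7 calls by score and the CITED2 call at matched score held in every alternative with a test. CITED2 between tertiles lost its call in 2 of 12, MXI1 in 6 and BHLHE40 in 5. At matched score ANKRD37 lost its call in 8 of 21, MXI1 in 6 and BHLHE40 in 4. BHLHE41 gained a call by score in 11 of 18. Causes were not tested. Leaving out a tumor gives no test, so values per tumor stand in the report. The test of the difference in response was not run without the low-UMI area, where 0 low-score inner spots of tumor 2 remained.

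Between score zones edgeR called 1560 genes. Other settings called 359 (DESeq2), 490 (no replicate block, that is without the tumor as a block), 2574 (a minimum of 2000 UMIs), 836 (thinning to 2000 UMIs), 3243 (without the spots richest in markers of other cells), 2418 (without the low-UMI area), 2405 (no smoothing), 1020 (smoothing over 2 rings), 304 (narrower zones at both ends of the score), 3224 (pooled score) and 3038 (score of summed shares). Library size scaling gave 492 higher and 1363 lower calls, against 907 and 653, with a median over all genes of -0.11.

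Between depth tertiles 836 genes and 3 of the 9 were called. Library size scaling called 394 and 1, DESeq2 102 and 0, no replicate block 41 and 0, every off-tissue position as border 173 and 1, and a split at the median depth 405 and 1. At least 2000 UMIs gave 1332 genes, thinning 348 and the frame edge as border 1395.

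At matched score 850 genes and 4 of the 9 were called. DESeq2 called 82 and 1, no replicate block 47 and 1, thinning 192 and 1, and the score of summed shares 562 and 1. Without the low-UMI area, and with the pooled score, 2 of the 9 were called. Smoothing over 2 rings gave 459 genes, percentile ranks 543, the frame edge 1353, a split at the median depth 303 and 10 bins 552.

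Near against far, 1 gene was called over all spots. The count was 0 with DESeq2 size factors, with DESeq2 (14 genes at an unadjusted p under 0.05), with no replicate block and without spots rich in other markers. It was 38 without filterByExpr, 9 at 2000 UMIs, 22 without the low-UMI area, 33 with odd score genes, 180 with no smoothing, 6 with ranks, 8 with 10 bins, 28 with another seed, 8 with 1 to 2 against 5 or more steps and 58 with summed shares. For the difference in response 2 genes were called, with 45, 0, 23, 1, 1, 0, 23 and 24 without filterByExpr, with no replicate block, at 2000 UMIs, thinned, with no smoothing, with narrower zones, with the pooled score and with summed shares.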
